A study of Mus musculus with 2 samples.

Results

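Keratins are the intermediate filament proteins of epithelial cells. A filament is built from a type I and a type II keratin in equal amounts, and Krt8 (type II) with Krt18 (type I) is the pair that simple epithelia and most mammary carcinoma cells carry. Here 8 of the 53 keratin genes among the 22620 genes of the series were followed in the cancer cells: Krt8, Krt18, Krt19, Krt7, Krt17, Krt14, Krt5 and Krt33b. They were chosen by name, with their levels and their difference between the libraries already known, so those values are descriptions.

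The tumours were grown in C57BL/6J mice from EO771-HEVM3 cells, a derivative of the mouse mammary carcinoma line EO771 obtained after 3 rounds of selection for spread through high endothelial venules. Cells of the primary tumours made 1 library of 10x Genomics 3′ single-cell RNA sequencing and cells of the lymph nodes made the other, each from 6 mice pooled, with no further treatment and no age in the labels. Cells were not assigned to mice, so there was 1 sample per group and no test was possible. The tumours were digested with collagenases and hyaluronidase and the lymph nodes with collagenase P, dispase and DNase for a shorter time, so tissue, library and digestion cannot be told apart in any difference below.

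The deposited values were unique molecular identifier (UMI) counts, 173317475 in 12427 primary tumour cells and 122207852 in 11617 lymph node cells. After filtering, 8756 and 9689 cells remained, of which 5930 (67.7%, 95% interval 66.7 to 68.7) and 593 (6.12%, 5.65 to 6.62) were cancer-like. Cancer-like cells were named from non-keratin epithelial markers after clustering without the keratin genes, so that the class did not rest on the genes described. Of the 13 markers, Epcam, Cldn3, Elf3 and Spint2 stood between 51.6 and 265 counts per 1000000 UMIs (CPM) in both libraries and Cldn4 at 64.9 and 3.54. Cdh1, the epithelial cadherin, stood at 0.259 and 0.199, and Cldn7, Spint1, Rab25, Ap1m2 and Esrp1 were at or near 0, so these cells held only some of the genes of an epithelium. The smooth muscle and basal genes of myoepithelial cells were at or below 2.68 CPM (Trp63 had 2 and 0 UMIs). The libraries shared 47 cell barcodes, which 19 primary tumour and 5 lymph node cancer-like cells carried. Cells over the limit of 6000 detected genes were outside the comparisons, and in the lymph node 971 such cells held 67.7% of the Krt8, 69.7% of the Krt18 and 71.2% of the Krt33b UMIs of the deposited library.

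The cancer-like cells formed 5 clusters of 287 to 2715 cells in the primary tumour and mainly cluster 23 in the lymph node (510 of 593 cells, with 1 cell from the primary tumour). The other 83 lymph node cells lay in primary tumour clusters, 52 of them in cluster 5. Dcn, a matrix proteoglycan gene of fibroblasts, was among the leading genes of cluster 23, while none of the 13 markers was. It stood at 1035 CPM in all primary tumour and 1129 in all lymph node cancer-like cells, where the other fibroblast markers were low: Col1a1 stood at 4.39 and 0.0996, Col1a2, Col3a1 and Lum had 7 to 99 UMIs and 0, and Pdgfra, in the other direction, had 5 and 33 UMIs. Values are therefore given for the class and again by cluster number.

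The genes lie in the keratin clusters of chromosomes 15 (type II, with Krt18) and 11 (other type I). Krt8 (chr15:101996698-102004482, GRCm38, minus strand) and Krt18 (chr15:102028180-102032027, plus strand) lie 23.7 kb apart and are read on opposite strands. The other type II members are Krt7 (chr15:101411043-101430313, plus strand) and Krt5 (chr15:101707070-101712898, minus strand). On chromosome 11, all on the minus strand, are Krt19 (chr11:100140810-100148665), Krt14 (chr11:100203162-100207548), Krt17 (chr11:100256217-100261029) and the hair keratin gene Krt33b (chr11:100023634-100029868). No 91-base window within the last 500 bases of any member's transcripts occurred in a transcript of another gene, which bears on a 3′ assay, since no read of that length there could be split between a member and a copy. Promoter sequence from RefSeq (GRCm38.p6) was available for 6 members, of which 4 held the letters ATAAA on the gene strand between 60 bases before and 10 after the start RefSeq gives, against 8.43% of 32851 promoters. The stretches below are shown because they set the partners apart: Krt8 holds the letters and Krt18, in the same pair, does not. Capitals mark ATAAA, searched on the gene strand alone. Preceded by a T, as in Krt8 and Krt33b, it gives TATAAA, the letters of the TATA box. In Krt7 an A and in Krt5 a G precedes it, so these matches are not TATAAA. Krt18 and Krt14 hold neither string between those bounds, although the Krt18 stretch ends in gatata.
Krt8 promoter, chr15:102004325-102004354, minus strand: gcctcttcttttATAAAgggccttcgctgg
Krt18 promoter, chr15:102028171-102028200, plus strand: gaggtccctacctcctcccgcggcgatata
Krt7 promoter, chr15:101412384-101412413, plus strand: ccgcatggaggaATAAAaggtcgcagactg
Krt14 promoter, chr11:100206046-100206075, minus strand: ggctgataaggctgctctgtactgagagga
Krt5 promoter, chr15:101712917-101712946, minus strand: acttctaaggggATAAAaggggacctcaaa
Krt33b promoter, chr11:100029897-100029926, minus strand: cactgacaggatATAAAgctccaaagagga
ATAAA began at the RefSeq start in Krt8, 7 bases before it in Krt7, 29 before it in Krt5 and 46 before it in Krt33b. These matches are descriptions of the windows.

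Which cells held the keratin RNA was asked first. Cancer-like cells held 98.2% (98.1 to 98.2, exact binomial 95% interval) of the Krt8 and Krt18 UMIs of the kept primary tumour cells, and in the lymph node 97.0% (96.9 to 97.2). Intervals here and below cover counting error only. All 74 Krt33b UMIs of the primary tumour and 598 of 614 in the lymph node were in cancer-like cells. Krt17 was the exception in the lymph node, with 0 of its 22 UMIs in cancer-like cells.

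**Figure D1:**
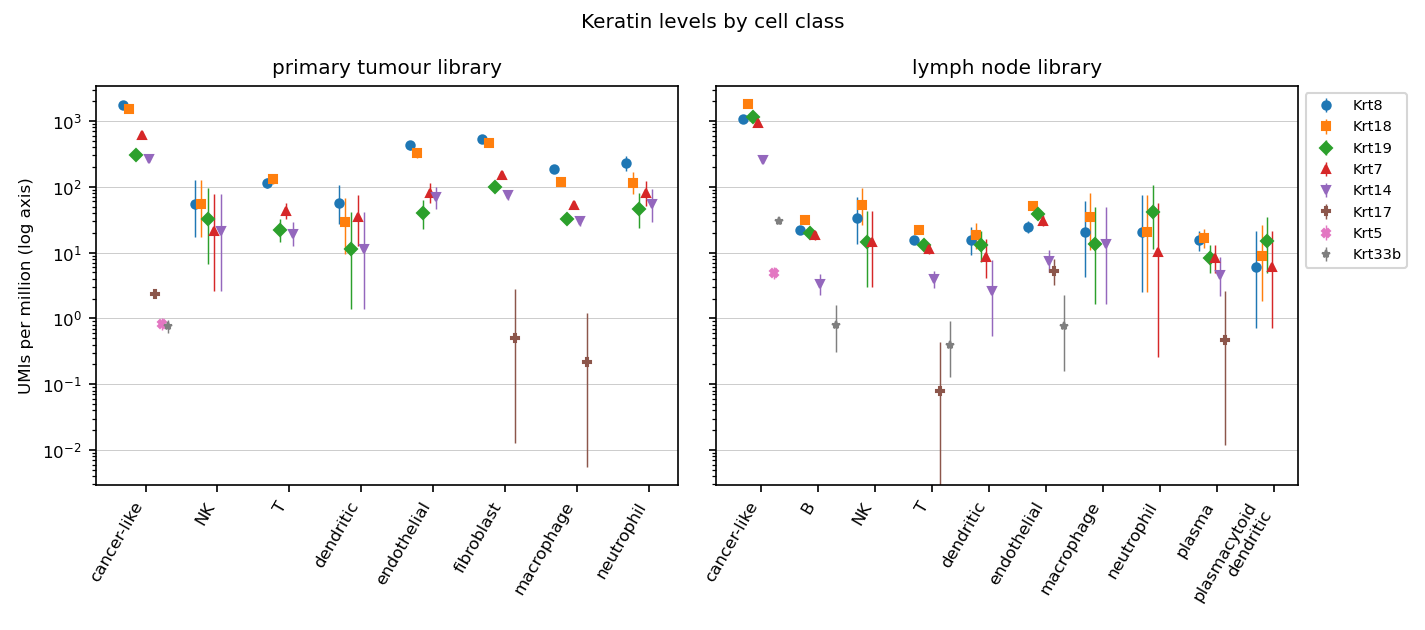
Level of each keratin (CPM, log axis) by cell class in the primary tumour library (left) and the lymph node library (right), with exact Poisson 95% intervals as lines. A class with 0 UMIs of a gene has no point for it. Krt8 and Krt18 stood above 1000 in the cancer-like cells of both libraries and at or below 533 in every other named class.

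The members ranked differently in the primary tumour and lymph node libraries. Among primary tumour cancer-like cells the order was Krt8 (1748 CPM, exact Poisson 95% interval 1739 to 1756), Krt18 (1547, 1539 to 1555), Krt7 (604, 599 to 609), Krt19 (309, 306 to 313) and Krt14 (267, 264 to 270). Krt17 followed at 2.37 (2.07 to 2.70), then Krt5 at 0.827 (0.656 to 1.03) and Krt33b at 0.765 (0.601 to 0.961). Only the intervals of the neighbours Krt5 and Krt33b overlapped. Because the assay counts molecules from their 3′ ends, levels were compared between genes without dividing by transcript length.

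In the lymph node cancer-like cells Krt18 led at 1804 CPM (1786 to 1823), ahead of Krt19 (1167, 1152 to 1182), Krt8 (1057, 1042 to 1071), Krt7 (930, 917 to 944) and Krt14 (259, 252 to 267). Krt33b was at 29.8 (27.5 to 32.3), Krt5 at 4.88 (3.96 to 5.95), and Krt17 had 0 UMIs, which allows up to 0.149. No neighbours overlapped in this order. Krt8 thus led the primary tumour list and was the third in the lymph node, while Krt19 moved from the fourth place to the next after Krt18.

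Of the 7 members with at least 100 UMIs in either library, 2 were at least 2-fold higher in the lymph node (Krt19 and Krt33b), 1 was at least 2-fold lower (Krt17) and 4 lay within 2-fold. Over all 10728 genes with that many UMIs, 4.57% were at least 2-fold higher and 9.46% at least 2-fold lower, with a median log2 ratio of -0.18. Nothing is read from these shares, since the members were chosen on this contrast. Krt17 and Krt33b passed the limit of 100 UMIs only in the library where each was high, and Krt5 did not pass it.

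Krt8, the type II partner of the main pair, was lower in the lymph node by 0.73 on the log2 scale (log2 ratio -0.73, 95% interval -0.75 to -0.71). Krt18, its type I partner, was slightly higher (0.22, 0.21 to 0.24). Relative to the median gene, the log2 ratios were -0.55 for Krt8 and 0.40 for Krt18. The ratio of the partners therefore differed between the libraries more than the level of Krt18 did.

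Krt19, a small type I keratin of ducts that lacks most of the tail domain, was 3.77-fold higher in the lymph node (log2 ratio 1.92, 1.89 to 1.94). Krt7, a type II keratin of ductal and other simple epithelia, was 1.54-fold higher (0.62, 0.60 to 0.65). Relative to the median gene, the log2 ratios were 2.09 for Krt19 and 0.80 for Krt7.

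Krt14 is the type I keratin of basal and myoepithelial cells, where it pairs with Krt5. Its log2 ratio was -0.04 (-0.08 to 0.00), which was 0.14 above the median gene, so its sign depended on the reference. With the cell with most Krt14 UMIs left out of each library, the ratio was -0.13 (-0.17 to -0.08). The pair was far from equal: Krt14 had 25791 UMIs in the primary tumour against 80 of Krt5, and 5209 against 98 in the lymph node. Krt5 was at 0.827 and 4.88 CPM, a log2 ratio of 2.56 (2.12 to 3.01), and 3.15 (2.64 to 3.70) after the cell with most Krt5 UMIs was left out of each library.

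Krt33b, a type I keratin of the hair cortex, had 74 UMIs in 68 of 5930 primary tumour cells and 598 UMIs in 296 of 593 lymph node cells. Its level was 38.7-fold higher in the lymph node (log2 ratio 5.27, 4.93 to 5.65). At a common depth of 5000 UMIs per cell, 0.356% (0.215 to 0.555) of the primary tumour and 12.3% (9.71 to 15.2) of the lymph node cancer-like cells held it. No single cell carried more than 8 Krt33b UMIs. Lymph node T cells, which should lack it, held a Krt33b UMI in 0.136% of 3687 cells at a median of 2990 UMIs, against 49.9% of cancer-like cells at a median of 35249.

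Krt17, a type I keratin of hair follicles and of wounded epidermis, had 229 UMIs in 150 primary tumour cancer-like cells and 0 UMIs in those of the lymph node. Against 3 UMIs over the lymph node group its level was at least 15.8-fold lower there. Of the 229 UMIs, 172 lay in cluster 4, 25 in cluster 5, 23 in cluster 2, 9 in cluster 0 and 0 in cluster 1. The 20 Krt17 UMIs of the lymph node endothelial class lay in 5 of 195 cells, all in cluster 22. Of these UMIs, 13 lay in 1 cell that had 11 Krt19 UMIs and no Krt8, Krt18 or Krt7 UMI. The 5 cells had 1 to 4 UMIs each of the endothelial marker Pecam1. A cell with 1 Krt17 UMI held 26 Krt8, 28 Krt18 and 9 Krt14 UMIs, and whether it was a mixed droplet was not tested.

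How the levels varied between clusters was examined next, because the lymph node class was mostly a cluster of its own. Within the primary tumour, Krt8 ranged from 986 CPM in cluster 0 to 2463 in cluster 5, and Krt18 from 978 in cluster 0 to 2030 in cluster 4. Krt19 ranged from 125 in cluster 0 to 465 in cluster 5. Krt7 had another order, from 433 in cluster 2 to 1118 in cluster 1. Krt14 varied least of these members, from 215 to 336. The leading genes of cluster 0 included Slc38a4, Wnt6 and the cell division genes Cenpf and Anln, with a median G2M score of 0.31 against -0.08 in cluster 4, and cluster 2, with a score of 0.30, had Krt8 at 1977. The part of cell division in these levels was not tested.

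**Figure D2:**
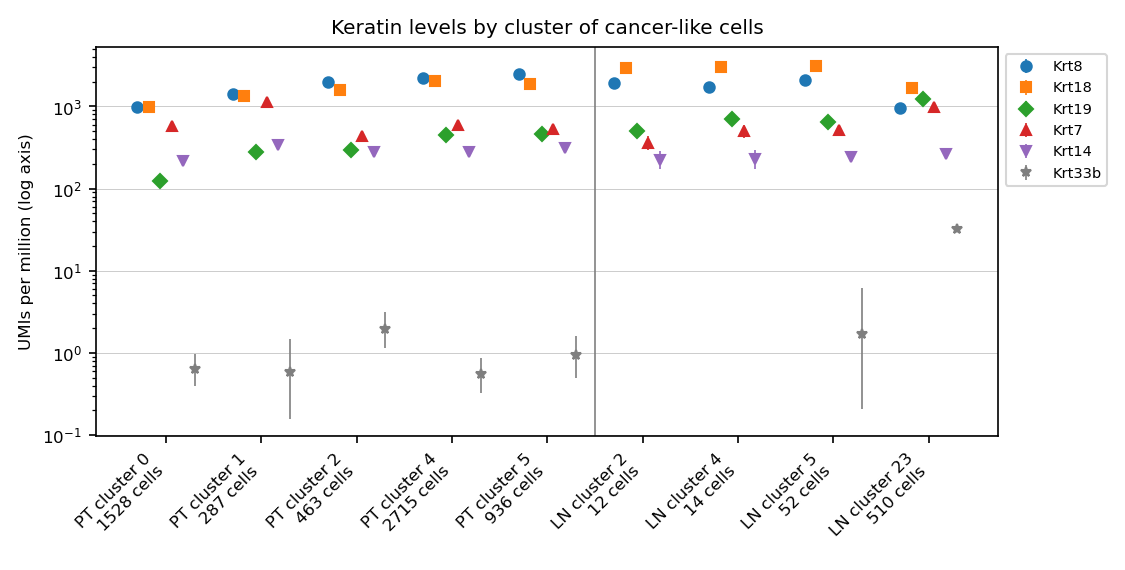
Level of 6 keratins (CPM, log axis) in each cluster of cancer-like cells of the primary tumour (PT) and lymph node (LN), with exact Poisson 95% intervals as lines. Krt18 lay above Krt8 in the 4 lymph node clusters shown, and Krt33b stood at 32.6 in lymph node cluster 23 and at or below 1.95 in the others where it had a UMI. Lymph node clusters 2 and 4 had 0 Krt33b UMIs, which allows up to 10.1 and 12.6, and no point.

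Cluster 5 held enough cells of both libraries for a comparison inside 1 cluster, 936 from the primary tumour and 52 from the lymph node. There Krt8 was at 2463 and 2081 CPM (log2 ratio -0.24, -0.30 to -0.18) and Krt18 at 1881 and 3082 (0.71, 0.66 to 0.76). Krt19 was at 465 and 652 (0.49, 0.38 to 0.60). Krt7 did not differ beyond counting error (524 and 516, -0.02, -0.14 to 0.10), and Krt33b had 13 and 2 UMIs. Krt14 was at 314 and 245 (-0.36, -0.54 to -0.19), lower in the lymph node cells. In this cluster the lower Krt8 and the higher Krt18 and Krt19 kept their directions at other sizes, while the higher Krt7 was not seen and Krt33b was too sparse to compare.

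Within the lymph node, cluster 23 stood apart from the 52 cells of cluster 5. Krt8 was at 961 against 2081 CPM (log2 ratio -1.11, -1.18 to -1.05) and Krt18 at 1684 against 3082 (-0.87, -0.92 to -0.82). Krt19 was at 1222 against 652 (0.91, 0.80 to 1.01) and Krt7 at 975 against 516 (0.92, 0.80 to 1.04). Krt33b had 596 UMIs in 294 of the 510 cells of cluster 23 and 2 UMIs in 2 of the 52 cells. Krt5 had 97 and 0 UMIs.

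The 83 lymph node cells outside cluster 23 were at 2012 CPM for Krt8, above the 1748 of all primary tumour cancer-like cells (log2 ratio 0.20, 0.16 to 0.25). That reference includes cluster 0 at 986, and within clusters 4 and 5 Krt8 was lower in lymph node cells. In cluster 4 Krt8 was at 2251 in the primary tumour and 1715 (1553 to 1890, 14 cells) in the lymph node, and in cluster 2 at 1977 and 1941 (1785 to 2106, 12 cells). Krt18 (0.96) and Krt19 (0.98) were higher in these cells too, and Krt7 (-0.34, -0.44 to -0.24) and Krt14 (-0.18, -0.32 to -0.04) were lower. Cluster 23 alone against the primary tumour gave -0.86 for Krt8, 0.12 for Krt18, 1.98 for Krt19, 0.69 for Krt7 and 5.41 for Krt33b.

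The balance of the filament types was read from the same counts. Type I members made up 47.5% (47.3 to 47.6) of all member UMIs in the primary tumour cancer-like cells and 62.1% (61.8 to 62.4) in the lymph node. Krt18 made up 47.0% (46.8 to 47.1) of the Krt8 and Krt18 UMIs in the primary tumour and 63.1% (62.7 to 63.5) in the lymph node. The shift held in the lymph node cells of both larger clusters, at 63.7% in cluster 23 and 59.7% in cluster 5, against 43.3% to 49.8% over the 5 primary tumour clusters. Equal amounts in a filament concern protein, which was not measured.

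In single cells with at least 20 UMIs of the pair, the median Krt18 share was 46.3% in 5122 primary tumour cells and 63.3% in 586 lymph node cells. The share was above 50% in 37.1% of the former and 92.0% of the latter. The SD between cells was 12.5 percentage points in the primary tumour, where counting error alone gives 7.41, and 9.13 in the lymph node, where it gives 5.39. These SDs pool clusters of different shares. Within clusters they ran from 11.2 to 13.3 in the primary tumour, and were 8.51 in cluster 23 and 10.7 in cluster 5 of the lymph node. They describe the cells of 1 pooled library each, and what lies behind them was not tested.

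**Figure D3:**
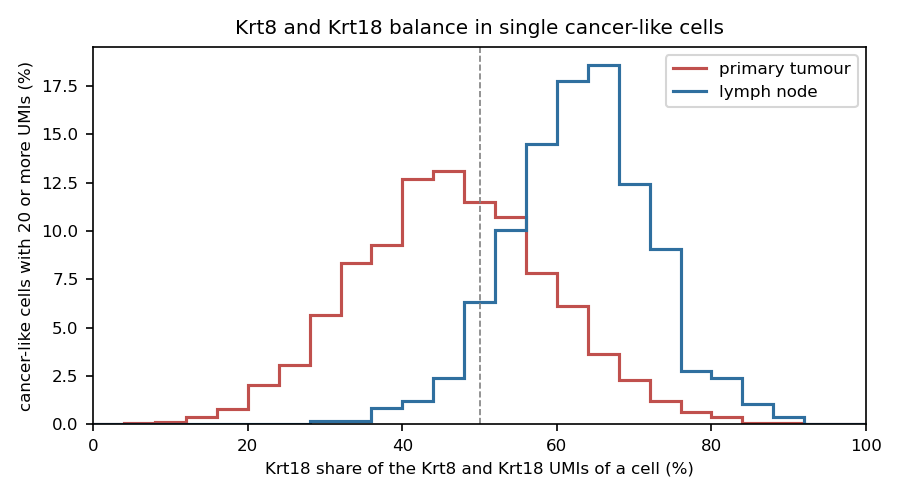
Krt18 share of the Krt8 and Krt18 UMIs of a cell (x axis, %) in cancer-like cells with at least 20 such UMIs, as the percentage of the cells of each library (y axis). The dashed line is at 50%, which 37.1% of primary tumour and 92.0% of lymph node cells exceeded.

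Single-cell levels were wide. Krt8 had a median of 1716 CPM in primary tumour cells with 5th and 95th percentiles of 526 and 4399, and of 960 with 427 and 2403 in lymph node cells. Krt18 had medians of 1507 (501 to 3132) and 1667 (922 to 3444). The ranges of the libraries overlapped for both genes, and the upper part of the primary tumour range of Krt8 lay above that of the lymph node. Krt19 had medians of 242 (0 to 962) and 1041 (287 to 2234), so the lymph node median lay above the 95th percentile of the primary tumour. Krt7 had medians of 495 (70.4 to 1408) and 872 (285 to 1632), and Krt14 of 188 (0 to 889) and 209 (23.2 to 541).

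**Figure D4:**
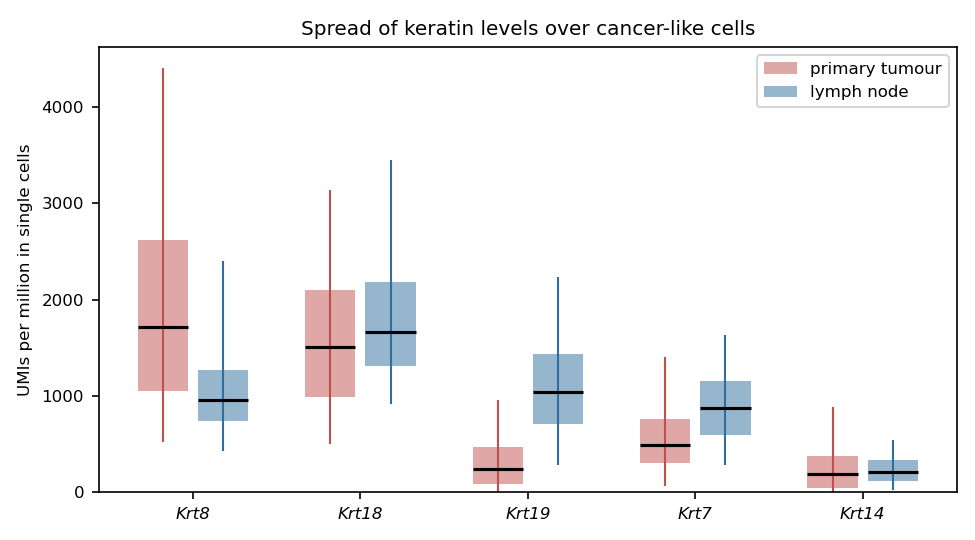
Single-cell levels (CPM) of the 5 abundant keratins in 5930 primary tumour and 593 lymph node cancer-like cells. Black bars are medians, boxes run from the 25th to the 75th percentile and lines from the 5th to the 95th. Krt19 separated the libraries most, with medians of 242 and 1041.

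After each cell was thinned to 5000 UMIs, the Fano factor (variance over mean, 1 for counting error alone) of Krt8 was 4.35 in primary tumour cells and 2.61 in lymph node cells. These values pool clusters of different levels: within clusters the Krt8 factor ran from 2.01 (cluster 0) to 3.88 (cluster 4) in the primary tumour, and was 1.57 in cluster 23 and 3.17 in cluster 5 of the lymph node. The other abundant members lay between 2.08 and 2.79 in the primary tumour and, with Krt14 taken without its top cell, between 1.43 and 2.54 in the lymph node. Krt33b, present in few cells, was at 1.05 in the primary tumour, close to counting error.

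Single cells carried much of the spread of Krt14 in the lymph node and of Krt5 in the primary tumour. A lymph node cell of cluster 23 held 329 of the 5209 Krt14 UMIs, with the next cell at 54, and the Fano factor of Krt14 was 3.56 with it and 1.43 without it. The same cell had the most Krt5 UMIs (9). Among primary tumour cells, 1 cell of cluster 4 held 32 of the 80 Krt5 UMIs, 13 of the 229 Krt17 UMIs and 38 Krt14 UMIs at a depth of 13470 UMIs, and the Fano factor of Krt5 was 6.44 with it and 1.03 without it. Without the top cell, the Fano factor of Krt14 in the primary tumour went from 2.32 to 2.30 and that of Krt5 in the lymph node from 1.15 to 1.08. The highest counts of Krt8 (223), Krt18 (336) and Krt19 (171) in the primary tumour were all in 1 cell with 94893 UMIs.

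Nearly every cancer-like cell held the main pair. Both Krt8 and Krt18 were detected in 99.2% of primary tumour cells and all 593 lymph node cells, and in 98.4% (98.0 to 98.7) and 97.8% (96.2 to 98.8) after thinning to 5000 UMIs. Independent detection would give 98.4% and 97.8%. Each gene alone was found in 97.9% to 99.8% of cells at this depth, so these shares had to lie close and nothing is read from them. The cells without any Krt8 or Krt18 UMI numbered 4 and 0. In T cells at 1000 UMIs, Krt8 was found in 9.34% of primary tumour and 1.70% of lymph node cells, against 78.3% and 62.4% of cancer-like cells, at unthinned median depths of 1559 and 2990 UMIs in T cells and 14516 and 35249 in cancer-like cells.

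Krt8, Krt18, Krt19 and Krt7 were all present in 82.8% of primary tumour and 99.2% of lymph node cells without thinning. At 5000 UMIs, Krt19 and Krt7 were found together in 59.4% (58.1 to 60.7) and 92.9% (90.5 to 94.8), which followed their levels, since independence would give 58.7% and 92.6%. Krt14 with Krt5 was found in 0.173% of primary tumour and 1.53% of lymph node cells, against 0.155% and 1.39% under independence.

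Levels of the members across cells were correlated after scaling to 10000 UMIs and taking logs. All cells of a library come from the same pooled preparation and differ in depth, so the coefficients are descriptions. In 5930 primary tumour cells Pearson r was 0.50 for Krt8 with Krt18, 0.44 for Krt8 with Krt19 and 0.40 for Krt18 with Krt19, and 0.29 for Krt7 with Krt14. In 593 lymph node cells r was 0.61 for Krt8 with Krt18 and 0.51 for Krt19 with Krt7, but 0.10 for Krt8 with Krt19 and -0.14 for Krt8 with Krt33b.

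**Figure D5:**
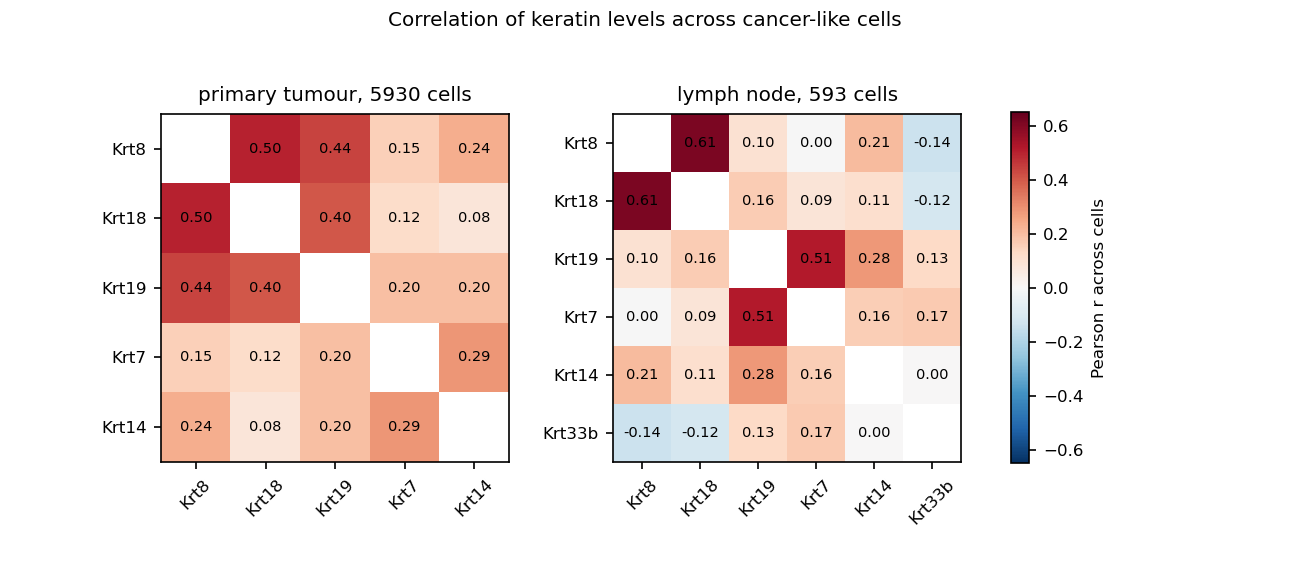
Pearson correlation across cancer-like cells between keratin levels (log of 1 plus UMIs per 10000) in each library. The strongest pair was Krt8 with Krt18 in both libraries (0.50 and 0.61), and Krt19 with Krt7 came next in the lymph node (0.51).

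Within clusters the picture differed. For cells of cluster 23, r was 0.50 for Krt8 with Krt18, 0.45 for Krt19 with Krt7, 0.38 for Krt8 with Krt19 and 0.30 for Krt8 with Krt7, whereas the latter coefficients were 0.10 and close to 0 over all lymph node cancer-like cells. Krt18 in cluster 23 had r of 0.46 with Krt19 and 0.42 with Krt7, and Krt8 with Krt33b was at 0.02 there. Within the 5 primary tumour clusters, Krt8 with Krt18 ranged from 0.26 to 0.55 and Krt8 with Krt19 from 0.10 to 0.45. Total UMIs per cell (log) correlated with Krt8 at -0.26 and -0.20 and with Krt19 at -0.03 and 0.33, so depth moved with these levels too and its part was not tested.

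The genes most like each keratin across cells overlapped in part between the libraries. Krt18, Fosb and Sfn were among those with the highest r for Krt8 in both, and Krt8 came first for Krt18 in both. Aldoa recurred for Krt19, as did Anxa2 and Lgals3 for Krt14, whereas the genes listed for Krt7 differed. These coefficients pool clusters of different keratin levels, and the part of the clusters in them was not tested. In the primary tumour, Krt8 was followed most closely by Sfn (r = 0.55), the epithelial 14-3-3 sigma gene, Emp1 (0.54) and Krt18 (0.50), then Fosb (0.50) and Actg1 (0.49). The genes most like Krt18 included Krt8, Fau (0.44) and Rpl30 (0.43). In the lymph node, the genes most like Krt8 included Krt18 (0.61), Fosb (0.45), Sfn (0.45) and Lmna (0.42). Fosb, an early response gene of the AP-1 family, was itself lower there, at 525 and 51.9 CPM in the primary tumour and lymph node, as was Atf3 at 525 and 134.

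In the lymph node, Krt19 was followed by the glycolysis genes Aldoa (0.56) and Gapdh (0.53), by Arpc2 and Capg (both 0.52) and by Krt7 (0.51). Krt7 was followed by Alad (0.58), an enzyme of haem synthesis, Krt19, Gapdh (0.48), Ugp2 (0.46) and Aldoa (0.45). The nearest genes to Krt7 in the primary tumour were Ly6a (0.33), S100a11 (0.29), Krt14 (0.29), S100a6 (0.28) and S100a10 (0.27), and those to Krt14 were Anxa2 (0.34), Lgals3 (0.30), Lmna (0.29), Krt7 and Nupr1 (0.28). Krt19 there was nearest to Krt8 (0.44), Aldoa (0.40) and Krt18 (0.40). For Krt33b in the lymph node no coefficient exceeded 0.28 (Dbi), and for Krt5 none exceeded 0.20 (Pkdcc).

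The other keratins were few in number of UMIs. The 8 members held 94.9% of all keratin UMIs in the primary tumour cancer-like cells and 97.5% in the lymph node, and Krt8 with Krt18 held 69.8% and 53.1%. Of the 45 others, 7 had at least 100 UMIs in either library, 25 had fewer and 13 had none in both. Krt20, an intestinal and urothelial keratin, was the highest at 91.6 and 73.3 CPM, and Krt80 was at 66.3 and 45.3. Krt6a (2576 and 18 UMIs), Krt90 (3374 and 24) and Krt16 (215 and 4) were lower in the lymph node, with log2 ratios of -4.85, -4.84 and -3.31, the direction of Krt17. Krt10 (1110 and 178) and Krt23 (270 and 52) had log2 ratios of -0.37 and -0.10.

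Lists of genes around the keratins were described by their counts. They were drawn up with earlier results of these data known and carry no test. Of 17 keratin linker genes (desmosome and hemidesmosome parts that anchor the filaments), 13 had at least 100 UMIs in either library, 0 were at least 2-fold higher and 1 was at least 2-fold lower, against 4.57% and 9.46% of all genes, and nothing is read from counts this small. Their median log2 ratio was -0.37, against -0.18 for all genes. The largest were Evpl, an envelope plakin that passed the limit only through the primary tumour (-1.15, 400 and 37 UMIs), the desmosomal cadherin Dsg2 (-0.92) and Pkp4 (-0.79). Plec, Dsp and Itgb4, which bind keratin filaments to the membrane, were at -0.37, -0.10 and -0.06. The others with at least 100 UMIs in both libraries were Jup (-0.63), Pkp2 (-0.61), Ppl (-0.53), Itga6 (-0.35), Pkp3 (-0.02), Dst (0.09) and Dsc2 (0.28).

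Of the other intermediate filament genes, 6 of 8 passed and 0 differed by 2-fold in either direction, with a median of 0.24. At the shares of all genes, 4.57% higher and 9.46% lower, nothing is read from 0 of 6. Vim, the filament of mesenchymal cells, stood at 1059 CPM in primary tumour and 1225 in lymph node cells. Its level lay between those of Krt18 and Krt7 in the former and between those of Krt18 and Krt19 in the latter, so keratin and vimentin RNA were both abundant in these cells. Of the lamins, which form the nuclear lamina, Lmna was at -0.39, Lmnb1 at 0.26 and Lmnb2 at -0.74 on the log2 scale, and Nes and Des were at 0.30 and 0.72.

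Of 17 hair shaft genes, 16 were in the gene list and 5 passed, 3 of them at least 2-fold higher in the lymph node (S100a3 at 4.26, Padi3 at 4.01 and Lef1 at 3.32 on the log2 scale) and 1 at least 2-fold lower (Tchh, -1.83), against 4.57% and 9.46% of all genes. Each of these passed the limit of 100 UMIs only through the library where it was high (S100a3 315 against 79 UMIs, Padi3 209 against 62, Lef1 133 against 64 and Tchh 264 against 15), so nothing is read from the count. S100a3 and Padi3, a calcium-binding protein of the hair cuticle and the deiminase that modifies it, were chosen with their ratios known. Lef1, a transcription factor of hair follicles and of T cells, was among the leading genes of T-like clusters 18 and 20. It stood at 411 CPM in lymph node T cells, against 6.63 in lymph node and 0.662 in primary tumour cancer-like cells, and the part of free RNA in its ratio was not tested. S100a3 and Padi3 stood at 1.10 and 0.236 CPM in those T cells, against 15.7 and 10.4 in lymph node cancer-like cells, while endothelial cells there held S100a3 at 29.1. Among the hair keratins on the list, Krt36 had 17 and 36 UMIs, Krt83 20 and 0, and Krt31, Krt34, Krt35, Krt81 and Krt86 between 0 and 4 in each library, so Krt33b was the hair keratin with the most UMIs. Of the hair shaft transcription factors, Hoxc13 had 1 and 2 UMIs, Foxn1 4 and 0, Msx2 3 and 1, and Dlx3 76 and 40 (log2 ratio 1.35, 0.75 to 1.91).

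In the lymph node, S100a3 was found in 40.5% of the 296 cells with a Krt33b UMI and in 23.6% of the 297 without, and Padi3 in 32.8% and 23.2%. Genes that are not on the hair list had gaps of like size, Nrn1 with 90.5% and 68.0% and Xlr3b with 64.5% and 44.8%. Of the cells with Krt33b, 294 were in cluster 23, and they had a median of 37308 UMIs against 31225 in the cells without. The part of the cluster and of this depth gap was not tested. Among primary tumour cells, Krt6a was found in 34.0% of the 150 cells with a Krt17 UMI and 17.1% of the others. Of the 150 cells, 107 were in cluster 4. The 150 had a median of 15850 UMIs against 14487 in the others, and the part of cluster and depth was not tested.

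Of 16 squamous genes, 7 passed, 1 was at least 2-fold higher in the lymph node and 4 were at least 2-fold lower, against 4.57% and 9.46% of all genes. Krt6a, Slurp1 and Krt16 passed only through the primary tumour, where they were high, so nothing is read from the count. Krt6a, Slurp1 (-4.21), Krt16 and Sfn (-2.17) were lower, and Sprr1a, a precursor of the cornified envelope and a leading gene of cluster 23, was higher (1.48). The list thus held genes of both directions.

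Keratin UMIs outside the cancer-like cells were examined last, since free RNA gives UMIs in droplets of other cells. In lymph node B and T cells, Krt8, Krt18 and Krt19 stood at 1.13% to 2.12% of the cancer-like level. The non-keratin genes Elf3 (2.06% and 1.25%) and Dcn (1.31% and 0.815%) stood at similar shares in B and T cells, whereas Spint2, also an epithelial marker, stood at 8.78% and 14.4%. Shares at the level of Elf3 and Dcn are not read as expression of keratins in lymphocytes, and their source was not tested.

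In the primary tumour the shares were larger and uneven. Fibroblasts stood at 30.5% of the cancer-like level for Krt8 and 29.9% for Krt18, with Elf3 at 27.4%, Cldn3 at 26.2% and Tff2 at 25.4%. Of their Krt8 and Krt18 UMIs, 85.5% lay in 25 of 243 cells, and the others were at 6.02% of the cancer-like level. Endothelial cells stood at 22.8% for the pair, and at 7.0% without the 6 cells with most, and macrophages at 9.18% and 3.07%. In endothelial cells Elf3 (6.11%), Cldn3 (12.1%) and Tff2 (4.39%) stood below the pair on 4 to 9 UMIs, with Spint2 at 19.9% and Dcn at 34.1%. In macrophages Elf3 stood at 11.2%, Cldn3 at 5.39% and Tff2 at 7.24%. Most keratin UMIs of these classes thus lay in few cells, and whether those were mixed droplets was not tested. A group of 199 primary tumour cells with a low median depth (1739 UMIs) was given no class and held the pair at 103% of the cancer-like level, which was 0.582% of the UMIs of the pair.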

How the data were processed

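Libraries of 10x Genomics 3′ chemistry from the primary tumours and lymph nodes of 6 mice were used, 1 per tissue, as deposited. The authors made the UMI counts, whole numbers per gene and cell, with Cell Ranger (5.0.0 per the file headers, 2.1.1 per the submitters' processing notes) on GRCm38, and the deposited counts are not normalised. The limits of the study methods were applied: more than 200 and no more than 6000 genes per cell, with mitochondrial UMIs up to 5%. Doublets were scored with Scrublet in scanpy 1.11.5 and removed (391 primary tumour cells at the automatic threshold, and 616 lymph node cells above the 94th percentile, because the automatic threshold marked 0). Both libraries were clustered together without the keratin genes (Leiden clustering, igraph 0.11.9), and clusters were named from marker lists. S and G2M phase scores were regressed out before clustering, and no correction between the libraries was applied. The scoring rule for names was set, and once amended, after the data were seen. G2M scores used the Seurat 5.3.0 gene list.

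Summed UMIs of a class were scaled to 1000000 (CPM) with exact Poisson intervals. Shares have exact Clopper-Pearson intervals, and log2 ratios have 0.5 added to each sum and the exact interval of a split of 2 counts, at 95%. A count of 0 allows 3 counts. Thinning gives the exact expectation over random draws of 5000 or 1000 UMIs, and shallower cells were left out (at 5000, 553 primary tumour and 5 lymph node cancer-like cells). The thinning and the intervals were tested on simulated data. No test was run on single libraries. Annotation was GENCODE vM21. Scripts used Python 3.11.15, numpy 2.4.6, scipy 1.17.1 and pandas 2.3.3.

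The members, the gene lists and the comparisons were chosen with earlier results of these data known. Genes named were the 8 members, other keratins with at least 100 UMIs in cancer-like cells of either library, list genes with at least 100 UMIs in both libraries or the 3 largest ratios of a list, and genes among the 5 with the highest correlation per member and library, some of which are not reported here. Krt31, Krt34, Krt35, Krt36, Krt81, Krt83, Krt86, Hoxc13, Foxn1, Msx2, Dlx3, Tchh and the genes set beside a result (Fosb, Atf3, Tff2, Nrn1, Xlr3b) were named after their values were seen. Alternatives were doublets kept, at most 10% mitochondrial UMIs, no upper limit on genes, keratins used for clustering and naming, each library clustered on its own, the mean of single-cell CPM and thinning to 1000 UMIs. Cluster 23 alone, leaving out the top cell and the Fano factor under each setting were added after seeing the data.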

Additional observations from a re-analysis of the deposited data

Results flagged for a closer look

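Cells over 6000 detected genes were outside the comparisons and held keratin UMIs far above the limit that a count of 0 allows. They were given no class, so their values cover cells of any kind. The kept values set beside them are of cancer-like cells alone. In the primary tumour, 874 such cells stood at 1045 CPM for Krt8, 1206 for Krt18, 164 for Krt19 and 0.713 for Krt33b. They held 18.1% of the Krt8 and 22.8% of the Krt18 UMIs of the deposited library.

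In the lymph node, 971 such cells stood at 727 CPM for Krt8, 1364 for Krt18, 830 for Krt19 and 24.2 for Krt33b. They held 67.7% of the Krt8, 69.7% of the Krt18, 68.8% of the Krt19 and 71.2% of the Krt33b UMIs of the deposited lymph node library, so most UMIs of these genes lay outside the comparisons. They held 1616 Krt33b UMIs, against 598 in the kept cancer-like cells. Krt18 stood above Krt8 in these cells of both libraries, whereas among the kept cancer-like cells Krt8 stood above Krt18 in the primary tumour.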

How the results depend on the processing

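No ratio or share changed its direction under any of the 125 alternative values computed, of which 91 stayed within the 95% counting interval of the reported value (for Fano factors, within 1.5 times it) and 34 moved out of it. The 83 lymph node cells outside cluster 23 were not among these alternatives. Against the primary tumour they had the other sign for Krt8 (0.20), Krt7 (-0.34) and, on 1 UMI, Krt5 (-0.01). Cluster 23 alone, chosen after seeing the data, gave -0.86 for Krt8, 0.12 for Krt18 and 1.98 for Krt19, and the mean of single-cell CPM gave -0.84, 0.18 and 1.77. Without an upper limit on genes (1292 lymph node cancer-like cells in place of 593) the log2 ratios were -0.69, 0.27 and 2.02, the type I share of the primary tumour was 47.8% and the share of the pair held by lymph node cancer-like cells 95.3%. At 10% mitochondrial UMIs, Krt8 was at -0.78, Krt19 at 1.87, the primary tumour type I share at 47.1%, and the shares of the pair held at 98.8% and 97.7%. Those shares were 98.7% and 97.7% with keratins used for clustering and naming, 97.9% and 97.5% with each library clustered on its own, and 97.0% in the primary tumour with doublets kept. Co-detection of the pair at 1000 UMIs was 60.5% and 51.2%, by construction of the lower depth. The cause of the other shifts was not tested.

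Krt33b stayed between 5.26 and 5.41, Krt7 between 0.58 and 0.69, Krt14 between -0.13 and -0.03 and Krt5 between 2.27 and 3.15. With 1 library per tissue from pooled mice, the intervals hold no spread between animals or libraries. Depth limits Krt5, Krt17 and Krt33b, which rest on few UMIs in at least 1 library. No paired analysis was possible because each group was 1 library and no cell was assigned to a mouse.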

Other observations

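Some keratins beside the members had UMIs outside the cancer-like class. In the lymph node, Krt83 had 105 UMIs outside it, 88 of them in T cells, and 0 in cancer-like cells, and Krt222 had 83 outside it, 34 of them in B cells, and 0 in cancer-like cells. Of the 277 Krt80 UMIs outside it, 215 were in endothelial cells. These genes were named after their values were seen, and no comparison of the design bears on them.

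Milk and hormone genes of the luminal mammary lineage were present in part. Csn3, a casein gene, stood at 8.77 CPM in primary tumour and 40.2 in lymph node cancer-like cells, and the oestrogen receptor gene Esr1 at 14.8 and 10.0. Csn2, Wap, Lalba, Prlr and Pgr had between 0 and 5 UMIs in each library. Of the mesothelial genes, Msln stood at 75.1 and 23.6 CPM, Wt1 at 0.517 and 1.74, while Upk3b had 9 and 0 UMIs and Lrrn4 0 in both.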
